A study of Penicillium oxalicum with 6 samples.

Results

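Described here are 10 genes of the filamentous fungus Penicillium oxalicum named as cellobiohydrolases or endoglucanases. They were taken by identifier from the deposited gene table, where the best protein match of each carries one of these enzyme names. They make up 10 of 8902 genes with an identifier, 3 named as cellobiohydrolases and 7 as endoglucanases. All 10 are described in mycelia grown in glucose, where the question addressed was how low their transcripts stand and in which order the strains fall.

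Cellulose is broken down by enzymes that act together. Endoglucanases cut inside the chains, cellobiohydrolases release cellobiose from the chain ends, and beta-glucosidases split cellobiose into glucose. In filamentous fungi these enzymes are secreted, their genes are switched on by cellulose-derived sugars, and glucose represses them through the carbon catabolite repressor CreA.

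The series holds 6 digital gene expression libraries, in which a 17-bp tag beside an NlaIII site stands for a transcript, and 3 of them are from glucose cultures. The strains were M12, a uracil auxotroph carrying the allele pyrGQ226* and derived from the wild type, Dmtr23B, the mtr23B knockout, and Rmtr23B, to which mtr23B was returned. M12 is taken as the parent. A pre-culture of 20 h in 2% glucose (Vogel's medium, 30 °C) was followed by 24 h in fresh medium, again with 2% glucose. Each strain has 1 glucose library, so no difference between strains has a replicate check, and differences of strain, culture and library preparation cannot be told apart. Whether the M12 allele was restored in the other strains, whether each strain was 1 transformant and where the returned copy lay is not stated in the sources used here. No description in the table carries the name mtr23B, so the deletion itself could not be checked.

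Between 2013784 and 2147854 tags of a glucose library were assigned to genes, 60.1% to 63.9% of its total. Levels are in TPM, here tags relative to that total without division by gene length, so a tag is worth about 0.298 TPM. No gene with an identifier has a count of 1 in any glucose library, and the lowest count above 0 is 2. A gene is therefore described as listed at 0, and no fold is given against such a value. All 95% intervals cover counting error only, since each strain has 1 glucose library. No molecular identifiers are mentioned, so copied tags could not be recognised and the intervals may be too narrow. Fewer expressing hyphae and less transcript per hypha cannot be told apart in these bulk samples.

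All 10 genes are assigned to the KEGG pathway of starch and sucrose metabolism, which holds 149 genes of the table. The best match of 6 genes is a protein of Penicillium decumbens, a name formerly used for this fungus. The remaining 4 match a protein of another fungus. The cellobiohydrolases PDE_07945 and PDE_05445 and endoglucanase I (PDE_07929) are the 3 genes annotated with cellulose binding, and the same 3 carry an extracellular location.

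Cellulase transcripts were scarce in M12 and in Dmtr23B, and less so in Rmtr23B. The median level of the 10 genes was 2.53 TPM in M12, 2.69 TPM in Dmtr23B and 11.2 TPM in Rmtr23B, against medians of 12.8, 14.6 and 11.3 TPM for all genes. In M12 8 of the 10 lay below the median of all genes, in Dmtr23B 9 and in Rmtr23B 5. A level of 10 TPM was reached by 2 of them in M12, 2 in Dmtr23B and 6 in Rmtr23B, compared with 55.4%, 57.9% and 52.9% of all genes. At least 2 tags were listed for 8, 7 and 10 genes.

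**Figure D1:**
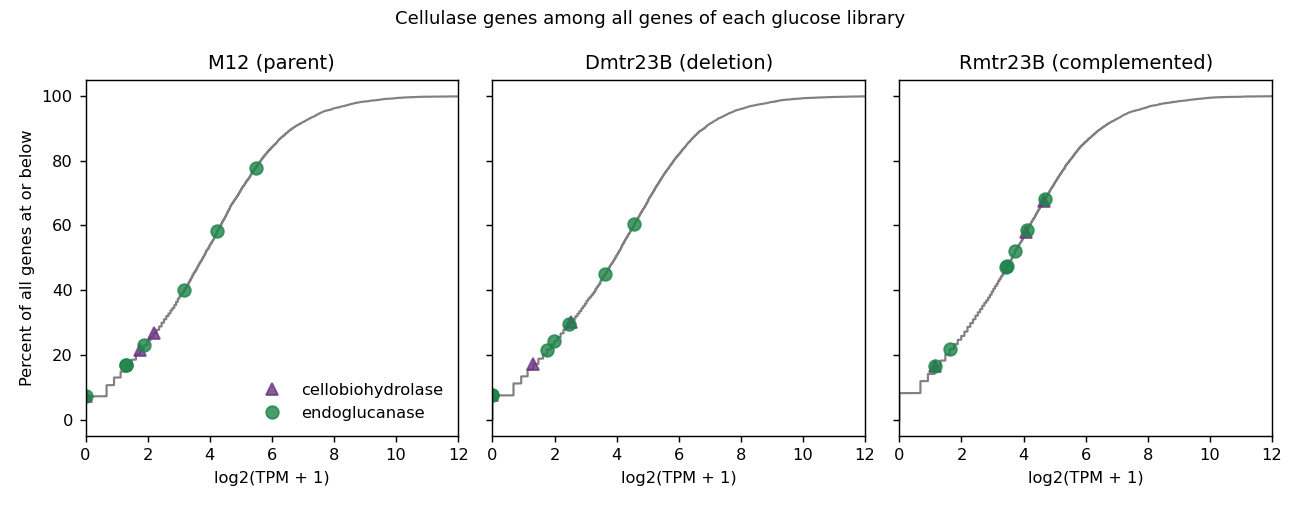
Cumulative distribution of log2(TPM + 1) over all 8902 genes (grey line, percent of genes at or below each level) in each glucose library, with the cellobiohydrolases (triangles) and endoglucanases (circles) placed on it. In M12 and Dmtr23B most of the cellulase genes sit on the lower part of the curve, and in Rmtr23B 6 of the 10 reach 10 TPM.

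The cellobiohydrolases, the main secreted cellulases of fungi grown on cellulose, had at most 16 tags each in M12 and Dmtr23B. Cellobiohydrolase II (PDE_07124), which in fungi acts from the non-reducing chain end, had 8 tags in M12 (2.38 TPM), 16 in Dmtr23B (4.77 TPM) and 81 in Rmtr23B (24.1 TPM). Rmtr23B stood above M12 10.1-fold (95% interval 4.90 to 24.2) and above Dmtr23B 5.05-fold (2.93 to 9.25), and Dmtr23B and M12 were not separated (2.00-fold, 0.810 to 5.41). In Rmtr23B 67.2% of all genes lay below it, against 20.2% in M12 and 29.4% in Dmtr23B.

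The second cellobiohydrolase, PDE_07945, had 12 tags in M12 (3.57 TPM), 5 in Dmtr23B (1.49 TPM) and 53 in Rmtr23B (15.8 TPM). Again Rmtr23B was the highest, 4.42-fold above M12 (2.33 to 9.08) and 10.6-fold above Dmtr23B (4.26 to 33.9). M12 was 2.39-fold above Dmtr23B, with an interval of 0.785 to 8.67 that does not separate them. The exo-cellobiohydrolase PDE_05445 was listed at 0 in M12 and Dmtr23B and had 4 tags (1.19 TPM) in Rmtr23B, too few to compare.

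Taken by summed tags, the 3 cellobiohydrolases held 5.95 TPM in M12, 6.27 TPM in Dmtr23B and 41.1 TPM in Rmtr23B. Rmtr23B exceeded M12 6.90-fold (4.30 to 11.6) and Dmtr23B 6.55-fold (4.12 to 10.9). The sum did not separate Dmtr23B from M12 (1.05-fold, 0.543 to 2.05). Without PDE_07124 Rmtr23B still exceeded M12 4.75-fold (2.52 to 9.73), while the ratio of Dmtr23B to M12 was 0.418 (0.115 to 1.27).

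The endoglucanases fell into separate patterns. A first group had the pattern of the cellobiohydrolases, with Rmtr23B highest. Endoglucanase 1 (PDE_09226) had 9 tags in M12 (2.68 TPM), 15 in Dmtr23B (4.48 TPM) and 41 in Rmtr23B (12.2 TPM). Rmtr23B was 4.56-fold above M12 (2.18 to 10.7) and 2.73-fold above Dmtr23B (1.48 to 5.30), and Dmtr23B and M12 were not separated (1.67-fold, 0.685 to 4.33).

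The endo-beta-glucanase B match PDE_05193 had 5 tags in M12 (1.49 TPM), was listed at 0 in Dmtr23B and had 34 tags in Rmtr23B (10.1 TPM), which stood 6.80-fold above M12 (2.65 to 22.3). Endoglucanase I (PDE_07929), like PDE_05445, was listed at 0 in M12 and Dmtr23B and had 4 tags in Rmtr23B.

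A second group was lower in Dmtr23B than in M12. Endoglucanase II (PDE_00507) had 27 tags in M12 (8.04 TPM), 8 in Dmtr23B (2.39 TPM) and 33 in Rmtr23B (9.82 TPM). M12 was 3.37-fold (1.49 to 8.57) and Rmtr23B 4.11-fold (1.86 to 10.3) above Dmtr23B, while M12 and Rmtr23B were not separated (1.22-fold, 0.713 to 2.11). This was the only one of the 10 genes in which both strains carrying mtr23B were separated from Dmtr23B but not from each other with TPM on library totals. The share of all genes with this pattern was not computed, so whether it is particular to this gene was not tested. BrlA (PDE_00087), described below, had 304, 18 and 300 tags in M12, Dmtr23B and Rmtr23B. PDE_00507 also stayed under 10 TPM in every library.

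The endoglucanase Cel5C (PDE_09969) had 60, 38 and 55 tags in M12, Dmtr23B and Rmtr23B, or 17.9, 11.3 and 16.4 TPM. M12 was 1.58-fold above Dmtr23B (1.03 to 2.43), and Rmtr23B was not separated from Dmtr23B on library totals (1.44-fold, 0.938 to 2.24). Scaled to the median ratio of all genes, M12 was 1.96-fold and Rmtr23B 2.01-fold above Dmtr23B, and both were separated from it.

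The most abundant of the 10 was the endoglucanase IV precursor PDE_00698. Endoglucanase IV is a name given in Trichoderma reesei to a protein now classed as a lytic polysaccharide monooxygenase, which cuts cellulose by oxidation. It had 147 tags in M12 (43.8 TPM), 76 in Dmtr23B (22.7 TPM) and 83 in Rmtr23B (24.7 TPM). Here M12 stood above both others, 1.93-fold above Dmtr23B (1.45 to 2.58) and 1.77-fold above Rmtr23B (1.34 to 2.35). Dmtr23B and Rmtr23B were not separated on library totals, with Rmtr23B 1.09-fold higher (0.788 to 1.51), but were after median-ratio scaling (1.52-fold). Even this gene lay above only 77.7%, 60.0% and 67.7% of all genes in M12, Dmtr23B and Rmtr23B.

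The endoglucanase PDE_06439, whose best match is an Aspergillus carboxymethylcellulase, had 5, 10 and 7 tags (1.49, 2.98 and 2.08 TPM), and no pair of strains was separated.

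**Figure D2:**
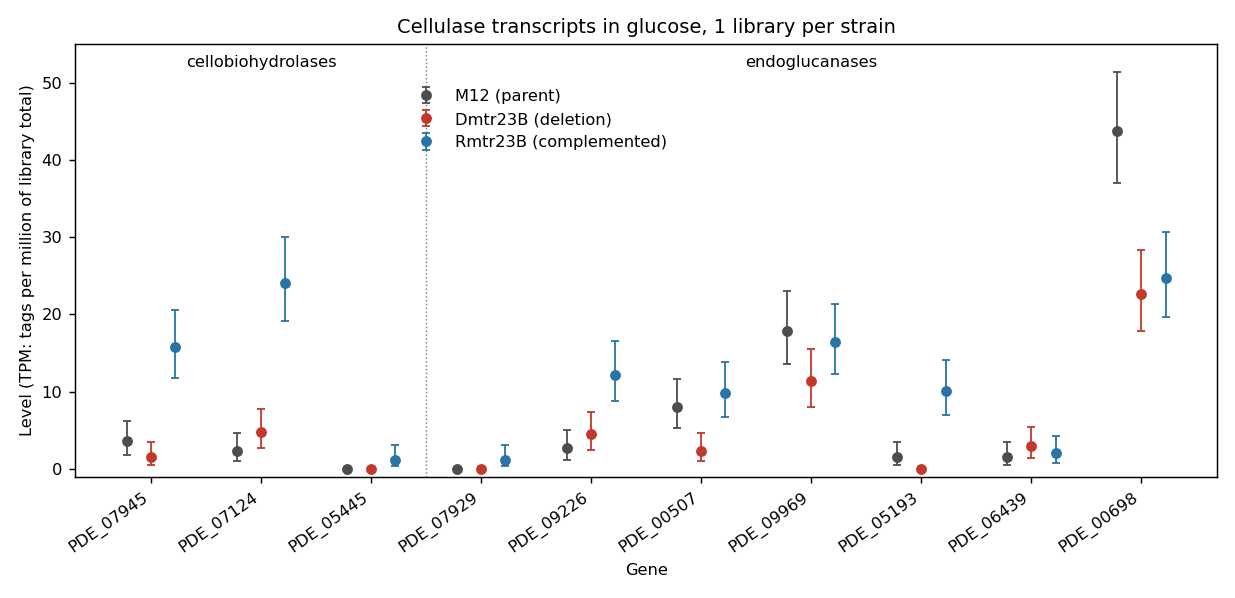
Level of each cellulase gene in TPM (linear axis) in the glucose library of each strain, with exact Poisson 95% intervals of the tag counts (none drawn for values listed at 0). Rmtr23B is highest for PDE_07945, PDE_07124, PDE_09226 and PDE_05193, and M12 for PDE_00698.

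The summed endoglucanase level was 75.3 TPM in M12, 43.9 TPM in Dmtr23B and 76.5 TPM in Rmtr23B. M12 stood 1.72-fold (1.40 to 2.12) and Rmtr23B 1.74-fold (1.42 to 2.15) above Dmtr23B, and M12 and Rmtr23B did not differ beyond counting error (1.02-fold, 0.851 to 1.21). A single gene shaped this sum. PDE_00698 made up 58.1% of it in M12, 51.7% in Dmtr23B and 32.3% in Rmtr23B, and without it Rmtr23B exceeded M12 1.64-fold (1.28 to 2.11). All 10 genes together held 81.3, 50.1 and 118 TPM in M12, Dmtr23B and Rmtr23B, at most 0.0184% of the tags assigned to genes.

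**Figure D3:**
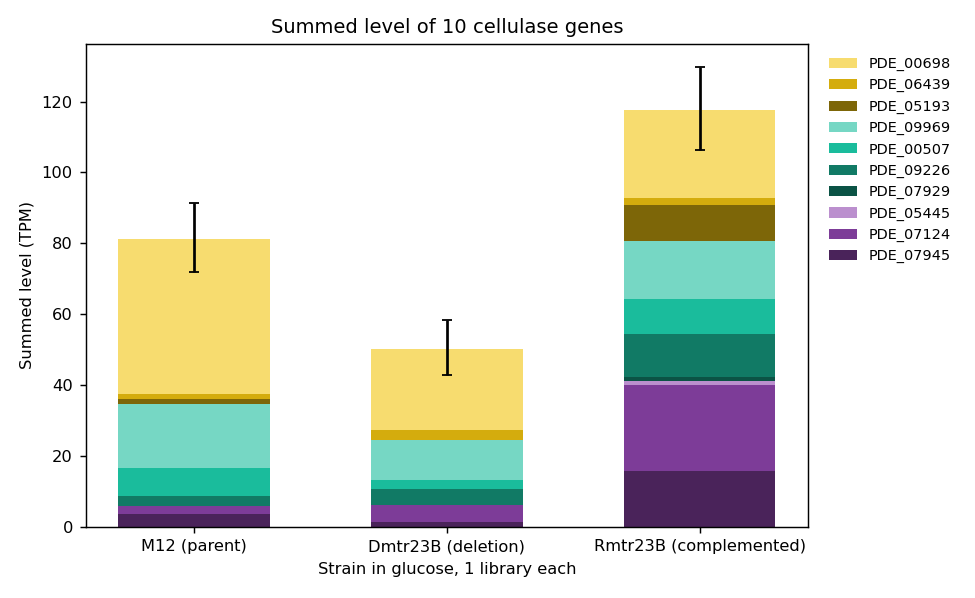
Summed TPM of the 10 genes in each glucose library, stacked by gene, with the exact Poisson 95% interval of the summed tags. Dmtr23B has the lowest sum at 50.1 TPM and Rmtr23B the highest at 118 TPM, and the purple cellobiohydrolase segments are tall in Rmtr23B alone.

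Among strains, Rmtr23B was the highest for 7 of the 10 genes, M12 for 2 and Dmtr23B for 1. Dmtr23B was the lowest for 5 genes, M12 for 3 and Rmtr23B for none, and for PDE_05445 and PDE_07929 both M12 and Dmtr23B were listed at 0. Shares over all genes were taken from the 5756 that reached 10 TPM in 1 or more of the libraries, which include only 6 of the 10. Among those 6 Rmtr23B was the highest for 4, all of which reached 10 TPM in Rmtr23B alone, M12 for 2 and Dmtr23B for none, beside 20.2%, 20.9% and 58.9% of the 5756. Dmtr23B was the lowest for 4 of the 6, M12 for 2 and Rmtr23B for none, beside 23.6%, 25.6% and 50.7%. These shares are a description, since the strains differ in the level of the median gene. Among genes with at least 10 TPM in either library and tags in both, the log2 ratio of the median gene was 0.33 for Dmtr23B over M12, 0.50 for Dmtr23B over Rmtr23B and -0.15 for Rmtr23B over M12. Relative to these shifts, the cellulase genes lay further down in Dmtr23B and further up in Rmtr23B than the folds on library totals show.

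For Rmtr23B against M12, 8 of the 10 genes had tags in both libraries. Their median log2 ratio was 1.31, beside -0.15 for genes with at least 10 TPM in either library and tags in both. That minimum was not asked of the cellulase genes, for this pair or the next ones. By the 95% interval 4 of the 8 were higher in Rmtr23B, where 13.7% of all genes with tags in both were, and 1 was lower, where 24.8% were. For Dmtr23B against M12 the median over 7 genes was -0.66, beside 0.33 for genes past that minimum. None of these 7 was higher (34.7% of all genes) and 3 were lower (15.7%). For Dmtr23B against Rmtr23B the median over 7 genes was -1.45, beside 0.50 for genes past that minimum. None was higher (42.8% of all genes) and 4 were lower (15.8%), or 6 after median-ratio scaling, PDE_09969 and PDE_00698 being added. With that scaling the shares of all genes were 23.6% higher and 28% lower for this pair, 21.2% and 24.5% for Dmtr23B against M12, and 19.6% and 18.2% for Rmtr23B against M12, and the calls of the cellulase genes in the latter pairs were the same. These comparisons share libraries and do not count as separate evidence.

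**Figure D4:**
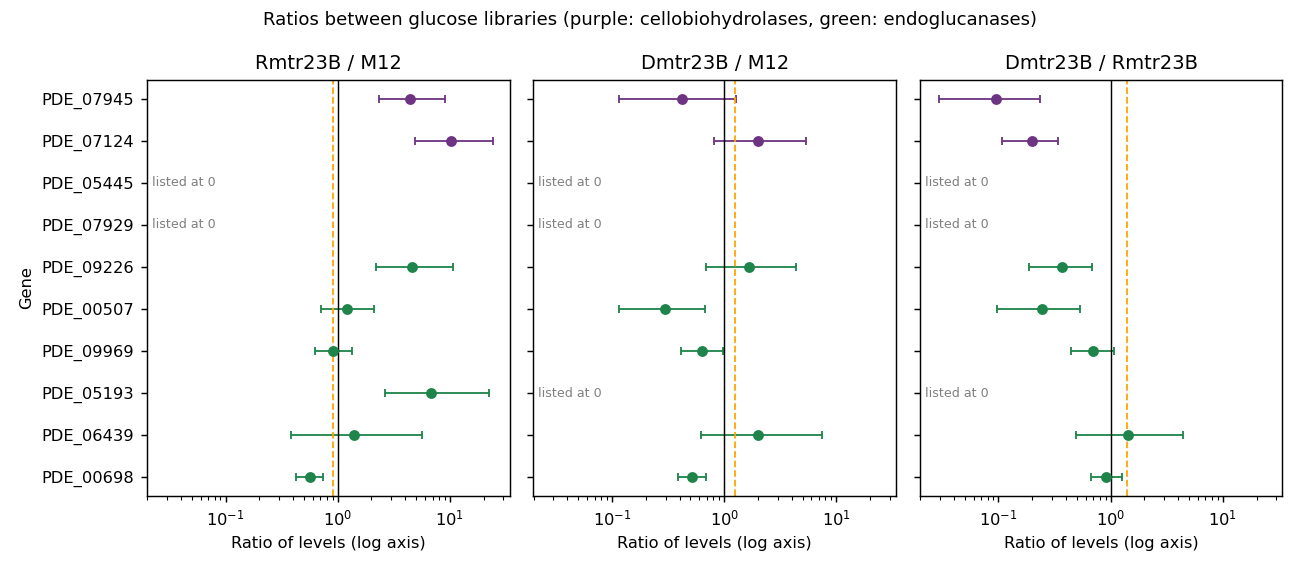
Ratio of levels between pairs of glucose libraries (log axis) for each cellulase gene, with exact binomial 95% intervals; the black line is a ratio of 1 and the dashed orange line the ratio of the median gene. Genes marked as listed at 0 have no tags in at least 1 of the libraries. In the left panel the whole intervals of PDE_07945, PDE_07124, PDE_09226 and PDE_05193 lie to the right of both lines and that of PDE_00698 to the left. In the middle panel the whole intervals of PDE_00507, PDE_09969 and PDE_00698 lie to the left.

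A stricter rule asked for a strain to be at least 2-fold above or below both others on the TPM + 1 scale, with at least 10 TPM in any library. Of the 10 genes 6 reached that level, 4 of them (PDE_07945, PDE_07124, PDE_09226 and PDE_05193) in Rmtr23B alone. Those 4 were the genes 2-fold higher in Rmtr23B than in both others, a group that held 3.06% of all genes past the same minimum, and none was 2-fold lower there (7.11%). Since they passed the minimum only through the library in which they were high, this count adds nothing to the values above. In Dmtr23B 1 gene was 2-fold lower than both others, PDE_05193 (7.82% of all genes), and none was 2-fold higher (10.8%). That call rests on a listed 0 in Dmtr23B against 5 tags in M12, for a gene past the minimum through Rmtr23B alone. After median-ratio scaling PDE_07945 and PDE_00507 joined PDE_05193, with 11.1% of all genes then lower and 5.4% higher. PDE_07945, with 5 tags in Dmtr23B and 12 in M12, was not separated between these strains by the 95% interval with either scaling. PDE_00507 was separated from both others with either scaling. It passed the minimum only after median-ratio scaling, its highest level on library totals being 9.82 TPM in Rmtr23B. Its joining therefore adds nothing to its values above. In M12 none was 2-fold higher (2.35%) or lower (0.573%).

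Dmtr23B was also tested against M12 and Rmtr23B together with edgeR's quasi-likelihood test, which takes the spread between those strains as its error. None of the 6 genes past the minimum passed it, with Benjamini-Hochberg adjusted p from 0.249 to 0.673, while 1.32% of all genes tested rose and 3.39% fell. Before adjustment 2 of the 6 were under 0.05, PDE_05193 and PDE_07945, both lower in Dmtr23B and both past the minimum through Rmtr23B alone, where 652 of all 5756 genes were lower and 343 higher. DESeq2 called none of the 6, beside 5.65% of all genes lower and 1.32% higher, and PDE_05193 had the smallest DESeq2 adjusted p of the 6, 0.0507. Without a minimum, edgeR called these 2 of all 10 as lower, with adjusted p of 0.0238 and 0.0498, beside 4.82% of all genes lower and 2.07% higher, and the adjusted p of PDE_00507 was 0.0627. Set against the other libraries in the same way, Rmtr23B gave no edgeR call among the 6 or among all genes (0% in either direction, with 99 genes higher and 97 lower at unadjusted p under 0.05). In that fit 2 of the 6 were under 0.05 before adjustment, PDE_07124 and PDE_07945, both with an edgeR adjusted p of 0.958. Since both reached the minimum only in Rmtr23B, this count adds nothing to their values. DESeq2 called 3 genes of the table higher (0.0521%) and 8 lower (0.139%) in Rmtr23B, none of them among the 6. These p-values set 1 library against the spread between the other 2. With Rmtr23B as the lone library, that spread lies between M12 and Dmtr23B, so differences of the deletion strain count as error. The lack of calls in that fit therefore decides nothing about single genes.

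The order of strains varied among the other genes of cellulose breakdown. Of 8 genes described as beta-glucosidases, 2 of which (PDE_03112 and PDE_04310) are named for other glucans, 5 were tested and none passed the edgeR test. The most abundant by mean level over the 3 libraries, beta-glucosidase I (PDE_02736), stood at 178, 282 and 68.5 TPM in M12, Dmtr23B and Rmtr23B, above each of the 10 cellulase genes in every library, and was lowest in Rmtr23B. By the 2-fold rule it was the 1 beta-glucosidase lower in Rmtr23B than in both others, and 1 was higher (7.11% and 3.06% of all genes past the minimum). The higher was the intracellular beta-glucosidase PDE_00579, at 7.74, 12.5 and 26.2 TPM in M12, Dmtr23B and Rmtr23B. The median log2 ratio of the beta-glucosidases was -0.02 in Rmtr23B against M12. The 3 accessory proteins were all under the minimum, the highest by mean level being cellobiose dehydrogenase (PDE_09177), an oxidase of cellobiose, at 6.85, 3.58 and 7.44 TPM.

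Of 25 genes described as hemicellulases, which act on xylan, mannan and arabinan, 8 were tested. By the 2-fold rule 2 were higher and 1 was lower in Dmtr23B than in both others, beside 10.8% and 7.82% of all genes past the minimum. The lower was an acetylxylan esterase match (PDE_04182), at 17.9, 5.37 and 19.9 TPM in M12, Dmtr23B and Rmtr23B. In M12 2 were 2-fold lower than both others, beside 0.573% of all genes past the minimum. They were the xylanase PDE_00752, given below, and xylanase I (PDE_05210), at 8.63, 21.19 and 18.45 TPM. An arabinan endo-arabinase (PDE_07585), the most abundant by mean level but not in M12 or Rmtr23B taken alone, rose to 82.4 TPM from 14.6 TPM in M12 and 15.5 TPM in Rmtr23B (edgeR adjusted p 0.0402). A xylanase (PDE_00752) stood at 31.9 TPM in Dmtr23B, with 2 tags in M12 (0.60 TPM) and 9 in Rmtr23B (2.68 TPM). It passed the minimum only through Dmtr23B, so its edgeR call adds nothing to these values. The hemicellulases had a median log2 ratio of -0.49 in Dmtr23B against M12 and -0.39 in Rmtr23B against M12. Of the 2 lactose permease matches neither passed the test, 1 having been tested. The more abundant, PDE_09395, was at 11.3, 40.0 and 15.5 TPM.

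Among 5 regulators named in the descriptions, 4 were tested. BrlA alone was 2-fold lower in Dmtr23B than in both others, beside 7.82% of all genes past the minimum. CreA (PDE_03168), the carbon catabolite repressor, stood at 261, 294 and 178 TPM in M12, Dmtr23B and Rmtr23B (edgeR adjusted p 0.972). PacC (PDE_05163), the factor of the pH response, was at 39.0, 43.3 and 9.82 TPM. It was 2-fold lower in Rmtr23B than in both others, beside 7.11% of all genes past the minimum. The edgeR fit with Rmtr23B set against the rest did not call it. LaeA (PDE_00584), a regulator of secondary metabolism, was at 21.1, 22.1 and 34.8 TPM, and AreA (PDE_03334), the activator of nitrogen metabolism genes, had at most 4 tags. BrlA (PDE_00087), which starts conidiophore formation, fell from 90.5 TPM in M12 and 89.3 TPM in Rmtr23B to 5.37 TPM (edgeR adjusted p 0.0181). No description carries the names of the activators XlnR and ClrB or of AmyR and Ace1, so these were not analysed here.

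The cultures were labelled as mycelia, and actin (PDE_01092) and glyceraldehyde 3-phosphate dehydrogenase (PDE_09952) were present in every library. Of 6 mycelium markers 5 were tested, and none passed the edgeR test between Dmtr23B and the others. By the 2-fold rule 1 mycelium marker was higher in Rmtr23B than in both others, beside 3.06% of all genes past the minimum. It was another glyceraldehyde 3-phosphate dehydrogenase (PDE_04588), at 3.27, 2.09 and 11.0 TPM in M12, Dmtr23B and Rmtr23B, past the minimum through Rmtr23B alone. Of 7 markers of asexual spores 5 were 2-fold lower in Dmtr23B than in both others, beside 7.82% of all genes past the minimum. They were BrlA and the pigment enzyme matches PDE_04496, PDE_09452, PDE_09453 and PDE_09492. The summed level of the 7 was 2781 TPM in M12, 1465 TPM in Dmtr23B and 1980 TPM in Rmtr23B. The largest contributor in every library was the spore hydrophobin RodA (PDE_00021), a wall protein, at 1587, 1388 and 812 TPM. WetA (PDE_08333), a regulator of late spore development, had at most 8 tags, and no description names AbaA. The part of these markers in the cellulase values was not tested.

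By likeness of profile, the gene with a product description nearest to cellobiohydrolase II was a maltase match (PDE_04152; 9.52, 22.1 and 101 TPM in M12, Dmtr23B and Rmtr23B). Its distance was 0.302 on the log2(TPM + 1) scale, centred over the 3 libraries. Next came a DNA repair family match (PDE_07532, distance 0.405) and endoglucanase 1 (PDE_09226, distance 0.788). Among described genes, the nearest to PDE_00698 were an adhesin match (PDE_03776, 0.0696), an aminopeptidase (PDE_09550, 0.0763) and a protein phosphatase match (PDE_02531, 0.106). A likeness over 3 libraries is a weak description, and 7 of 5756 genes, counted with or without a product description, lay within 0.1 of PDE_00698.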

How the data were processed

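Tag counts per gene and TPM values were deposited by the authors in a single table. Per the labels' protocols, NlaIII-cut cDNA was tagged with MmeI (17 bp) and sequenced as 35-bp reads. The tag mapper, genome build, strand use and rule for tags shared by related genes are not stated in the sources used here, so overlapping or near-identical genes are uncertain. Deposited TPM match counts divided by the library totals, per the file headers, to within 0.005. Rows without identifier (282) hold no glucose values. The 6 cellulose and wheat bran columns were not used.

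The genes, lists and tests were chosen with earlier results of these data known. Named genes were the 10 cellulase genes, all regulators matched, in each other list of cellulose breakdown the gene with the highest mean level and those past the edgeR test, and the 3 nearest profiles, among genes with a product description, of the cellobiohydrolase and the endoglucanase with the highest mean level. Spore and mycelium markers were checked as well. They, PDE_00579, PDE_04182 and PDE_05210 are named outside this rule, after their values were seen. Ratios have exact binomial and levels exact Poisson 95% intervals (scipy 1.17.1), two-sided. The planned floor of 3 tags for a count of 0 was dropped, since no count of 1 is listed. edgeR 4.0.16 (TMM, quasi-likelihood, two-sided, adjusted p threshold 0.05) ran on every gene that reached 10 TPM in a glucose library, about 33.6 tags, and DESeq2 1.42.0 was the alternative (R 4.3.3). It assumes that the single library of a strain varies as much as the other 2. A RefSeq table of another strain matched 0 identifiers, so no positions or sequences are given.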

Additional observations from a re-analysis of the deposited data

How the results depend on the processing

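No paired analysis was possible because each strain has 1 glucose library, and no library could be left out with a test remaining. Scaling was the main choice: compared with library totals, the median ratio takes out log2 shifts of 0.31 for Dmtr23B over M12, 0.48 for Dmtr23B over Rmtr23B and -0.17 for Rmtr23B over M12. With median-ratio, then TMM scaling, the ratio of Dmtr23B to M12 was 0.497 and 0.501 for all 10 genes, and to Rmtr23B 0.306 and 0.311. For the 7 endoglucanases median-ratio scaling gave 0.469 against M12, and median-ratio and TMM scaling gave 0.412 and 0.419 against Rmtr23B. Both scalings gave 3 genes 2-fold lower in Dmtr23B than in both others instead of 1, and 1 gene highest in M12 instead of 2. That count of lower genes was 2 with a minimum of 5 TPM, with no minimum, at 1.5-fold and with TPM + 0.1. It was 0 at 3-fold and with scaling by tags in genes. At 1.5-fold 1 gene was higher and 1 lower in M12 than in both others, instead of 0. Without PDE_00698 the ratio of Dmtr23B to Rmtr23B was 0.296 for the remaining 9 genes and 0.409 for the remaining 6 endoglucanases, and that of Rmtr23B to M12 was 2.48 and 1.64. Without PDE_07124, an alternative chosen like the previous role-wise ones after seeing the data, the cellobiohydrolase ratio of Dmtr23B was 0.418 to M12 and 0.0879 to Rmtr23B. Without a filter on low counts edgeR called 2 genes instead of 0. Of 88 recomputed ratios of single genes 87 stayed within the main 95% interval. With so few tags these intervals are wide, so this is a weak check. PDE_09969 stayed within it yet became separated between Dmtr23B and Rmtr23B after median-ratio scaling. The cause of these shifts was not tested. Depth limits PDE_05445, PDE_07929 and PDE_06439 most, with at most 10 tags in any library.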

Other observations

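Further rows of the table carry cellulase-type names or annotations outside the 10 genes and were singled out after their values were seen. A glycoside hydrolase 45 match (PDE_07928), a family that holds endoglucanases, has the locus number just before endoglucanase I and had 6 tags in M12, 4 in Dmtr23B and 55 in Rmtr23B. Rmtr23B was 9.17-fold above M12 (95% interval 3.95 to 26.1) and 13.7-fold above Dmtr23B (5.06 to 52.1), and the edgeR adjusted p for Dmtr23B was 0.357. A xyloglucan-specific endoglucanase (PDE_02886) had 22, 2 and 31 tags in M12, Dmtr23B and Rmtr23B, M12 being 11.0-fold above Dmtr23B (2.70 to 96.3). With no filter on low counts its edgeR adjusted p was 0.00960. A putative extracellular cellulase CelA (PDE_09586) went the other way from the cellobiohydrolases, with 82, 55 and 35 tags, M12 2.34-fold above Rmtr23B (1.56 to 3.59). The endoglucanase-4 match PDE_01261 was listed at 0 in M12 and had 4 tags in Dmtr23B and 12 in Rmtr23B.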
